A study of Homo sapiens with 36 samples.

Results

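INA, MAGED1, TNNT1, PID1 and CLEC5A are 5 protein-coding genes whose transcripts were far lower in IRG1 knockout (KO) than in wild-type (WT) macrophage-like cells that had received vehicle only. They were picked for those falls from the 21599 gene rows of the deposited log2 table, and their rows were found by Entrez Gene identifier (9118 for INA, 9500 for MAGED1, 7138 for TNNT1, 55022 for PID1 and 23601 for CLEC5A). The vehicle values of KO against WT are therefore what chose the genes and are given here as a description, with no test. The rule of choice did not use KO against WT in stimulated cells, the comparison made here at each of 3 times. The genes were chosen with earlier results of these data known, so this comparison is not a fully independent check.

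The 36 RNA-seq libraries came from THP-1, a human monocytic leukaemia line, made macrophage-like with 100 nM of the phorbol ester PMA over 72 h. There were 4 kinds of cells, stimulated IRG1 KO, stimulated WT, vehicle-treated IRG1 KO and vehicle-treated WT, each at 6, 12 and 24 h with 3 libraries per group. Stimulated cells had received 200 ng/mL LPS together with 200 ng/mL interferon-gamma (IFN-γ), and the PMA treatment was shared by all 12 groups. IRG1 is the earlier name of ACOD1, the mitochondrial enzyme that makes itaconate from cis-aconitate. How the KO line was made, and whether it is 1 clone or a pool, is not given in the labels. Nor do they tie the replicates to separate cultures, so each p-value covers the spread among these libraries only, which may be technical.

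The values are on the authors' log2 scale, whose offset and read depth are not given in the sources used here. A gene was called when its limma p-value, adjusted by Benjamini-Hochberg over the 21232 rows kept, was below 0.05. All 5 genes were kept, each through its WT groups, and no count over them is read as support for their fall. ACOD1, the targeted gene, ran from 7.98 to 10.22 in the 9 stimulated KO libraries and from 9.20 to 12.76 in the 9 stimulated WT libraries, with a KO minus WT difference of -2.49 ± 0.27 (limma standard error, mean of 3 times, adjusted p = 1.24e-07). Its transcript was thus lower but present in stimulated KO cells. At 24 h alone its stimulated difference was not called (-1.48 ± 0.47, adjusted p = 0.0597). With vehicle, where the 5 genes were picked, ACOD1 was near 0 in both genotypes (0.00 to 0.33 in KO and 0.12 to 0.86 in WT libraries). The KO library of replicate 2 at 6 h and the WT library of replicate 3 at 24 h, both stimulated, lay farthest from their group mates (root mean square distance 1.44 and 1.26, others 0.572 to 1.00). Results that change without them are given with both values. All 20 listed macrophage identity genes were measured, and their summed level on the log2 scale ran from 16.3 to 17.3 in stimulated KO, 16.4 to 17.3 in stimulated WT, 15.4 to 16.4 in vehicle KO and 16.3 to 17.1 in vehicle WT libraries.

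The 5 genes do not belong to 1 pathway. INA codes for alpha-internexin, a subunit of the intermediate filaments of neurons, and TNNT1 for the slow skeletal muscle form of troponin T, which anchors the troponin complex to tropomyosin. MAGED1 is a type II MAGE protein, an adaptor bound by the p75 neurotrophin receptor and tied to cell death signalling. PID1 is a small adaptor with a phosphotyrosine-binding domain that binds the lipoprotein receptor LRP1 and dampens insulin signalling in fat and muscle cells. CLEC5A is the most macrophage-related of them, a C-type lectin receptor of myeloid cells that signals through the adaptor DAP12 (TYROBP) and whose gene has been described as a target of the myeloid factor PU.1 (SPI1).

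The genes lie on 5 chromosomes (INA on 10, TNNT1 on 19, MAGED1 on X, PID1 on 2 and CLEC5A on 7), and their promoters are shown because the transcripts were low together while the sequences before their starts are unlike one another. RefSeq windows of the 250 bases before the transcript start (GRCh38.p14) were at hand for 4 of the 5 genes, all but PID1, with 2 alternative windows for MAGED1. The bases just after each window were found in a GENCODE 29 transcript of its gene, except for INA, whose start is therefore less sure. Capitals mark the GC box GGGCGG and the PU.1 core GAGGAA, each on either strand, so that CCGCCC and TTCCTC are their reverse complements. The INA window lies at chr10:103276888-103277137 (+ strand), the second MAGED1 window at chrX:51893373-51893622 (+ strand), the TNNT1 window at chr19:55149207-55149456 (- strand) and the CLEC5A window at chr7:141946975-141947224 (- strand), each read 5′ to 3′ along its gene.
INA: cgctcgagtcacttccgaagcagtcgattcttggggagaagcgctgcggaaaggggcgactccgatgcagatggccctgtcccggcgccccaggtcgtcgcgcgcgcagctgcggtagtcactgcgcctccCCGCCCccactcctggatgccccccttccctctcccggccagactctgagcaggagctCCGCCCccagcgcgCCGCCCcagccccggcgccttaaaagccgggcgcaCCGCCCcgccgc
TNNT1: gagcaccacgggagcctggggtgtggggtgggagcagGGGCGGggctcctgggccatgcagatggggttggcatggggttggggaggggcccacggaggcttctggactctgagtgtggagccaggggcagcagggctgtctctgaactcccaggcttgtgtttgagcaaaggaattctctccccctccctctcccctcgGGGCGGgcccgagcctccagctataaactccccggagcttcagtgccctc
MAGED1 (second window): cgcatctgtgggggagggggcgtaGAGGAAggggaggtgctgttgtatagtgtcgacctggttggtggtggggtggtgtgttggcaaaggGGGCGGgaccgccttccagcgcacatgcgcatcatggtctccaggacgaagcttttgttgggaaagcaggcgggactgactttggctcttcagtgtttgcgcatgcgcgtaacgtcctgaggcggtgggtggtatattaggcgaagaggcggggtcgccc
CLEC5A: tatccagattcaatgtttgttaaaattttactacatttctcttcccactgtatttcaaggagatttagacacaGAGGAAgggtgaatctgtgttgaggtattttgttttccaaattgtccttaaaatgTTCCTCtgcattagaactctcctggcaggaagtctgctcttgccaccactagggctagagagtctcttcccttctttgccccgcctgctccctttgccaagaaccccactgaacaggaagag

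The INA window was rich in CG, with 30 CG dinucleotides, 72.8% G and C and 4 GC boxes, against a median of 11 CG dinucleotides (quartiles 3 and 23) over 35116 RefSeq windows of the same length. The CLEC5A window stood at the other end, with 1 CG dinucleotide, 43.6% G and C, no GC box and 2 PU.1 cores, and 14.7% of all windows held as few CG. The TNNT1 window held 7 CG dinucleotides, 2 GC boxes and 1 TATA box (TATAAA or its reverse complement). The printed MAGED1 window held 17 CG dinucleotides, 1 GC box and 1 PU.1 core, and the first held 6 CG dinucleotides and none of the motifs searched. A GC box was found in 42.6% of all windows, a PU.1 core in 23.6%, a TATA box in 10.7% and the AP-1 motif TGANTCA, which none of the windows of these genes held, in 6.57%. No motif was present in every gene's window. A match describes letters only and is no evidence of a bound site.

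In stimulated cells INA, TNNT1 and MAGED1 fell in KO at 6, 12 and 24 h, with log2 differences between -3.36 and -6.07. PID1 and CLEC5A fell at 6 h, and on the mean of the 3 times, but were not called at 12 or 24 h. The description of the set as lost in KO whatever the treatment thus held for INA, TNNT1 and MAGED1, and was not called for PID1 and CLEC5A at 12 and 24 h, which does not show that KO and WT were alike. In all 3 like-numbered pairs of libraries at each of these times KO was below WT for both genes. The share of all rows with that pattern was not counted, and the labels do not say that like-numbered libraries were pairs. The pair count is therefore not read as support for a fall. With a replicate block CLEC5A was called at 24 h (adjusted p = 0.0466) and not at 12 h (adjusted p = 0.0763), while PID1 was called at neither (adjusted p = 0.234 at 12 h and 0.388 at 24 h).

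Read against the whole table, the count of these genes called lower in stimulated KO cells was 5 of 5 at 6 h, where 3.86% of all rows tested were called lower. It was 3 of 5 at 12 h, against 1.68% of rows, and 3 of 5 at 24 h, against 2.46% of rows. INA, TNNT1 and MAGED1 were called at all 3 times, as were 0.575% of rows. On the mean of the 3 times all 5 were called, against 10.4% of rows called lower. Among the 241 rows called lower at all 3 times in vehicle, 17.4% were also called lower at all 3 times in stimulated cells. Because these are bulk libraries, fewer cells making a transcript and less transcript per cell cannot be told apart.

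**Figure D1:**
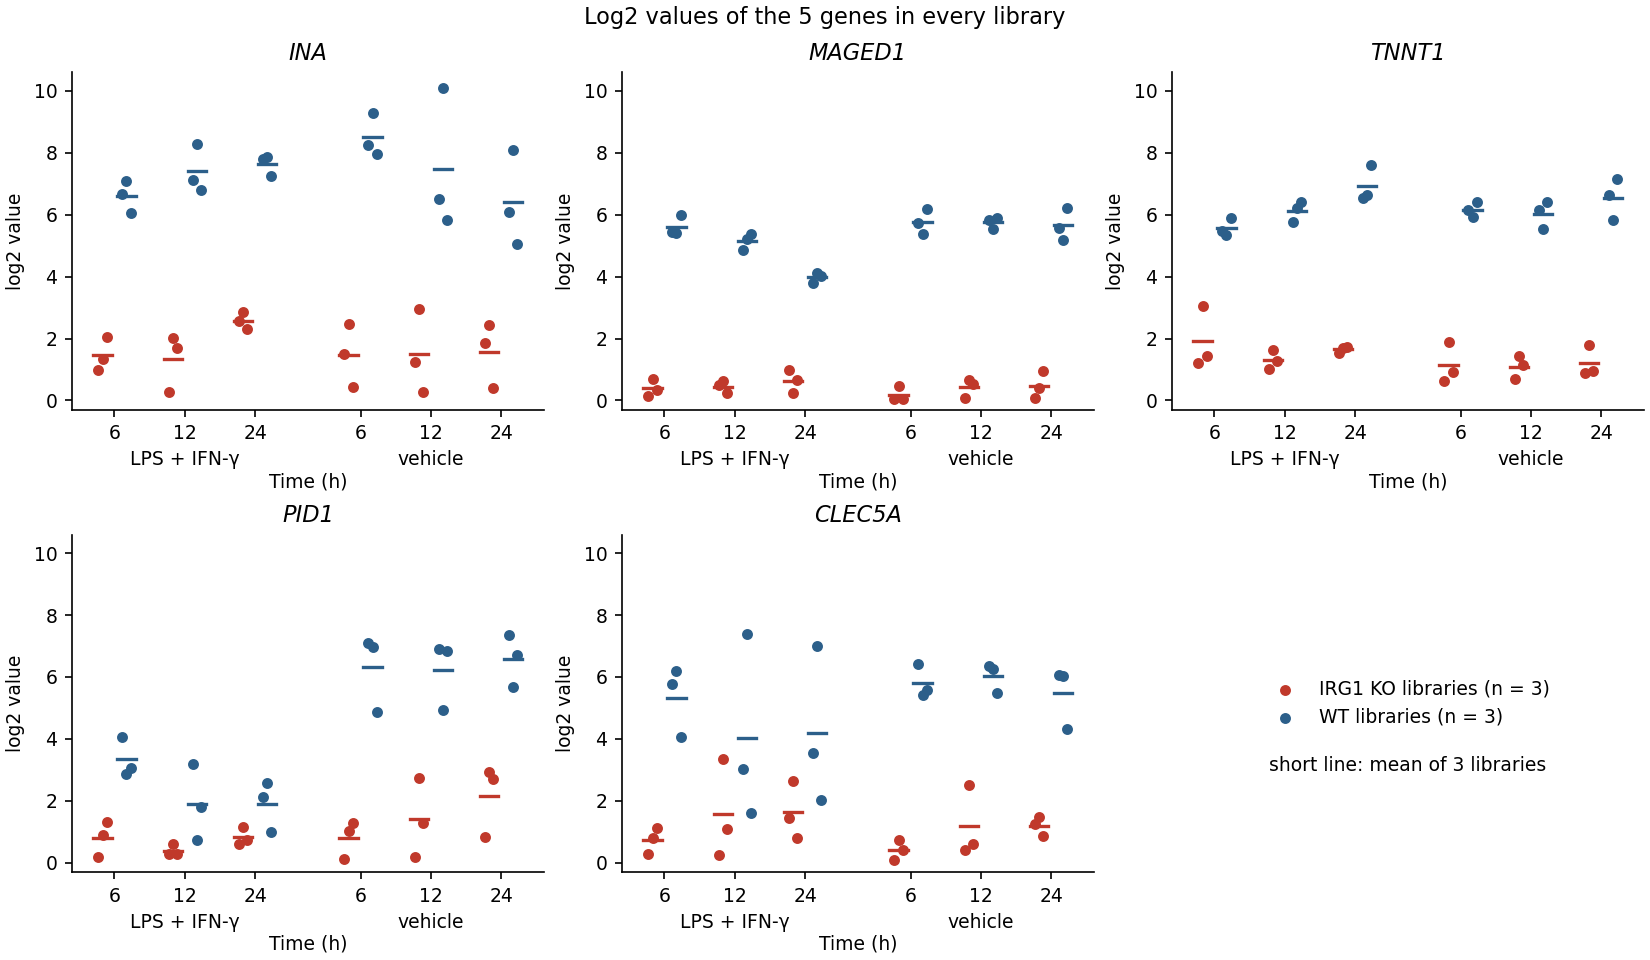
Deposited log2 value (vertical axis) of each of the 5 genes in every library, by treatment and time in hours, with KO libraries in red left of WT libraries in blue and a short line at the mean of 3. For INA, TNNT1 and MAGED1 all KO points lie below all WT points, while stimulated PID1 overlaps at 24 h and stimulated CLEC5A at 12 and 24 h.

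INA, the neuronal filament subunit, stayed low in every KO library. In the stimulated KO libraries (replicates 1, 2 and 3) it read 0.99, 1.34 and 2.04 (6 h), 0.27, 2.02 and 1.71 (12 h) and 2.56, 2.85 and 2.32 (24 h). The stimulated WT libraries read 6.66, 7.10 and 6.05 (6 h), 7.13, 8.29 and 6.81 (12 h) and 7.79, 7.87 and 7.25 (24 h). Every stimulated KO library was thus below every stimulated WT library, and all 9 were under 3.32, which is log2 of 10. The KO minus WT difference was -5.15 ± 0.84 at 6 h (limma adjusted p = 0.000202), -6.07 ± 0.84 at 12 h (adjusted p = 6.39e-05) and -5.06 ± 0.84 at 24 h (adjusted p = 0.000469). On the mean of the 3 times it was -5.43 ± 0.48 (adjusted p = 3.75e-09). Leaving out any 1 stimulated library moved that mean difference between -5.54 and -5.25.

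With vehicle, INA read 1.49, 2.47 and 0.45 (6 h), 1.23, 2.97 and 0.27 (12 h) and 1.84, 2.45 and 0.40 (24 h) in KO libraries. The vehicle WT libraries read 8.24, 9.30 and 7.95 (6 h), 6.52, 10.08 and 5.83 (12 h) and 6.10, 8.09 and 5.05 (24 h). Among WT groups INA was highest in vehicle at 6 h (8.50 ± 0.71, SD, n = 3) and lowest in vehicle at 24 h (6.41 ± 1.55). Between them lay stimulated 24 h (7.63 ± 0.34), vehicle 12 h (7.48 ± 2.28), stimulated 12 h (7.41 ± 0.78) and stimulated 6 h (6.60 ± 0.53). Only the top pair, and the stimulated 12 h and 6 h groups, differed by more than the larger SD of the pair of neighbours. Replicate 2 was the highest library in 11 of the 12 groups, KO and WT alike. The KO minus WT differences in vehicle were -7.03, -5.99 and -4.85 at 6, 12 and 24 h. Stimulated minus vehicle differences in WT were -1.89 at 6 h, -0.07 at 12 h and 1.22 at 24 h, and those in KO were -0.01, -0.16 and 1.01 at the same times.

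TNNT1, the slow muscle troponin T, kept WT values of 5.35 or more in every library and never passed 3.06 in KO. In the stimulated KO libraries TNNT1 read 1.22, 3.06 and 1.45 (6 h), 1.02, 1.63 and 1.28 (12 h) and 1.53, 1.71 and 1.73 (24 h). The stimulated WT libraries read 5.48, 5.35 and 5.89 (6 h), 5.77, 6.21 and 6.42 (12 h) and 6.55, 6.65 and 7.60 (24 h). The groups did not overlap at any time, and the highest KO value came from the library of replicate 2 at 6 h that stands apart. The difference was -3.66 ± 0.43 at 6 h (adjusted p = 2.49e-06), -4.83 ± 0.43 at 12 h (adjusted p = 3.65e-08) and -5.28 ± 0.43 at 24 h (adjusted p = 1.33e-08), with a mean of -4.59 ± 0.25 (adjusted p = 1.37e-13).

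With vehicle, TNNT1 read 0.64, 1.90 and 0.92 (6 h), 0.69, 1.42 and 1.16 (12 h) and 0.89, 1.78 and 0.95 (24 h) in KO libraries. The vehicle WT libraries read 6.14, 5.93 and 6.40 (6 h), 6.14, 5.55 and 6.41 (12 h) and 6.63, 5.84 and 7.15 (24 h). The vehicle differences were -5.004, -4.94 and -5.33 at 6, 12 and 24 h. In WT the order of levels was stimulated 24 h (6.93 ± 0.58, SD, n = 3), vehicle 24 h (6.54 ± 0.66), vehicle 6 h (6.16 ± 0.24), stimulated 12 h (6.14 ± 0.33), vehicle 12 h (6.03 ± 0.44) and stimulated 6 h (5.57 ± 0.28). The 24 h groups stood at the top in both treatments, although neighbours in this order, apart from the lowest pair, differed by less than the larger of their SDs.

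MAGED1, the death-linked adaptor, had the smallest standard error of the 5 genes and did not reach 1 in any KO library. The stimulated KO libraries read 0.13, 0.69 and 0.34 (6 h), 0.50, 0.62 and 0.23 (12 h) and 0.98, 0.23 and 0.65 (24 h). The stimulated WT libraries read 5.43, 5.42 and 5.98 (6 h), 4.87, 5.21 and 5.39 (12 h) and 3.79, 4.12 and 4.02 (24 h). All 9 stimulated KO libraries were below 1, where the log2 value depends on the offset, which is not given, and the WT libraries were lowest at 24 h. MAGED1 differed by -5.22 ± 0.33 at 6 h (adjusted p = 1.54e-11), -4.71 ± 0.33 at 12 h (adjusted p = 4.32e-10) and -3.36 ± 0.33 at 24 h (adjusted p = 4.49e-07). Its mean difference was -4.43 ± 0.19 (adjusted p = 1.20e-15).

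With vehicle, MAGED1 read 0.04, 0.48 and 0.04 (6 h), 0.09, 0.66 and 0.52 (12 h) and 0.09, 0.40 and 0.95 (24 h) in KO libraries. The vehicle WT libraries read 5.73, 5.36 and 6.17 (6 h), 5.83, 5.55 and 5.90 (12 h) and 5.58, 5.18 and 6.22 (24 h). The vehicle differences were -5.57, -5.34 and -5.18, so the KO deficit in vehicle was nearly level over time. The WT groups ran from vehicle 12 h (5.76 ± 0.18, SD, n = 3) through vehicle 6 h (5.75 ± 0.41), vehicle 24 h (5.66 ± 0.52), stimulated 6 h (5.61 ± 0.32) and stimulated 12 h (5.16 ± 0.27) to stimulated 24 h (3.98 ± 0.17). The first 4 lay within their SDs of each other, and stimulated 24 h stood below all others. Stimulated minus vehicle differences in WT were -0.15, -0.60 and -1.68 at 6, 12 and 24 h.

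PID1, the LRP1-binding adaptor, had the widest gap between its KO deficits in stimulated and in vehicle cells. In the stimulated KO libraries it read 0.18, 0.90 and 1.32 (6 h), 0.29, 0.59 and 0.28 (12 h) and 0.61, 1.16 and 0.72 (24 h). The stimulated WT libraries read 4.07, 2.88 and 3.06 (6 h), 3.20, 0.73 and 1.79 (12 h) and 2.11, 2.56 and 0.98 (24 h). KO and WT did not overlap at 6 or 12 h but did at 24 h, and 8 of the 9 stimulated WT libraries were under 3.32. PID1 differed by -2.54 ± 0.72 at 6 h (adjusted p = 0.0248), by -1.52 ± 0.72 at 12 h (adjusted p = 0.279) and by -1.05 ± 0.72 at 24 h (adjusted p = 0.428). The mean difference was -1.70 ± 0.42 (adjusted p = 0.00364). The 6 h call was lost without WT replicate 1 (-2.18, adjusted p = 0.131), KO replicate 1 (-2.23, adjusted p = 0.0833) or KO replicate 2 (-2.60, adjusted p = 0.0516), and with a pseudocount of 5 the 6 h difference was -1.17 (adjusted p = 0.117) and the mean difference -0.71 (adjusted p = 0.0550).

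With vehicle, PID1 read 0.11, 1.01 and 1.28 (6 h), 0.19, 2.73 and 1.28 (12 h) and 0.83, 2.94 and 2.70 (24 h) in KO libraries. The vehicle WT libraries read 7.11, 6.97 and 4.88 (6 h), 6.91, 4.93 and 6.85 (12 h) and 7.36, 5.66 and 6.70 (24 h). All 9 vehicle WT libraries were above every stimulated WT library, which ended at 4.07. Stimulated minus vehicle differences in WT were -2.98 at 6 h, -4.32 at 12 h and -4.69 at 24 h, and those in KO were 0.00, -1.02 and -1.32 at the same times. In WT the 3 vehicle groups stood first, at 24 h (6.57 ± 0.86, SD, n = 3), 6 h (6.32 ± 1.25) and 12 h (6.23 ± 1.13), which differed by less than their SDs. Stimulated 6 h (3.34 ± 0.64), 12 h (1.91 ± 1.24) and 24 h (1.88 ± 0.81) followed, and the last pair differed by less than its SDs.

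CLEC5A, the DAP12-coupled lectin receptor, differed most between replicates. In the stimulated KO libraries it read 0.28, 0.81 and 1.13 (6 h), 0.25, 3.35 and 1.10 (12 h) and 1.45, 2.63 and 0.80 (24 h). The stimulated WT libraries read 5.76, 6.18 and 4.05 (6 h), 3.04, 7.39 and 1.62 (12 h) and 3.54, 6.99 and 2.02 (24 h). Replicate 2 was high in both genotypes at 12 and 24 h, so the KO library of replicate 2 overlapped the WT libraries of replicates 1 and 3 at 12 h and that of replicate 3 at 24 h. CLEC5A differed by -4.59 ± 1.07 at 6 h (adjusted p = 0.00671), by -2.45 ± 1.07 at 12 h (adjusted p = 0.230) and by -2.56 ± 1.07 at 24 h (adjusted p = 0.159). The mean difference was -3.20 ± 0.62 (adjusted p = 0.000400), and it stayed called without any 1 stimulated library, between -3.60 and -2.63.

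The 12 and 24 h values of CLEC5A hung on the WT library of replicate 2. Without it the difference was -0.76 at 12 h (adjusted p = 0.753) and -1.15 at 24 h (adjusted p = 0.527). Without WT replicate 3 it was -3.65 at 12 h (adjusted p = 0.0919) and -3.64 at 24 h (adjusted p = 0.0904). At 24 h, where like-numbered libraries deviated together, the fit with a replicate block called the same difference of -2.56 (adjusted p = 0.0466). The 6 h call was lost when only stimulated libraries were fitted (adjusted p = 0.0677).

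With vehicle, CLEC5A read 0.09, 0.73 and 0.42 (6 h), 0.40, 2.51 and 0.62 (12 h) and 1.25, 1.49 and 0.85 (24 h) in KO libraries. The vehicle WT libraries read 6.42, 5.42 and 5.58 (6 h), 6.34, 6.26 and 5.48 (12 h) and 6.05, 6.03 and 4.32 (24 h). The vehicle differences were -5.39, -4.85 and -4.27 at 6, 12 and 24 h. The replicate spread in WT was wider in stimulated than in vehicle libraries at 6, 12 and 24 h. The WT groups ran from vehicle 12 h (6.02 ± 0.48, SD, n = 3) through vehicle 6 h (5.81 ± 0.54), vehicle 24 h (5.47 ± 0.99), stimulated 6 h (5.33 ± 1.13) and stimulated 24 h (4.18 ± 2.55) to stimulated 12 h (4.02 ± 3.01), and no group differed from the next by more than the larger of their SDs. Over all 12 groups replicate 2 was the highest library in 8.

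**Figure D2:**
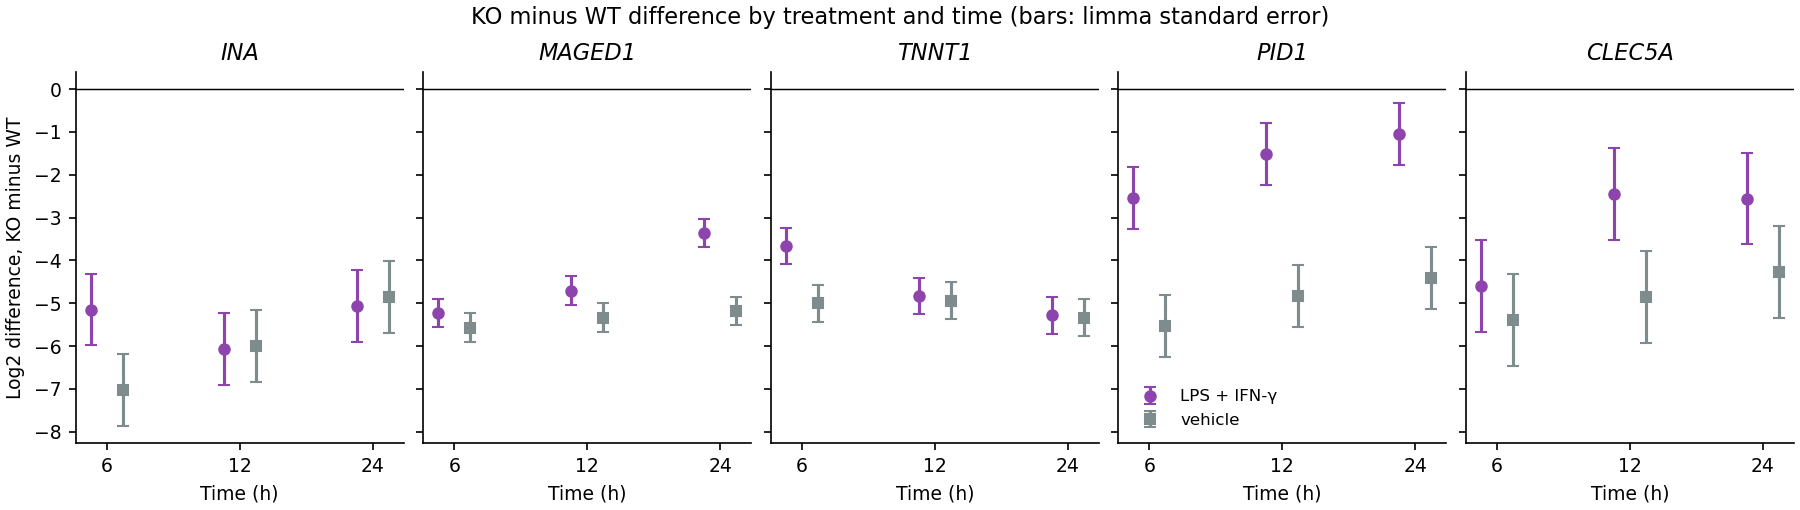
KO minus WT log2 difference of each gene at 6, 12 and 24 h (horizontal axis), stimulated in purple circles and vehicle in grey squares, with limma standard errors as bars. Stimulated PID1 lies between -2.54 and -1.05, above its vehicle values of -5.52, -4.82 and -4.41, while TNNT1 lies at -3.66 or lower and INA at -4.85 or lower in both treatments.

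By ranks, the number of these genes with every KO library below every WT library was 5 at 6 h, 4 at 12 h and 3 at 24 h in stimulated cells, against 9.63, 11 and 9.18% of rows. In vehicle, where the genes were chosen, it was 5 at each time (13.1, 13.1 and 12.2% of rows). With 3 libraries against 3 an exact permutation test cannot give a p below 0.10. Permuting genotype within the 3 stimulated times, the two-sided exact p of the mean difference was 0.00025 for INA, TNNT1 and MAGED1, which is the smallest that 8000 arrangements can give, 0.00075 for PID1 and 0.003 for CLEC5A, with KO lower at all 3 times for each gene.

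Within stimulated KO cells none of the 5 genes was called between 24 and 6 h, where 27.5% of rows were called in either direction. The KO differences of 24 against 6 h were 1.12 ± 0.84 for INA (adjusted p = 0.337), -0.25 ± 0.43 for TNNT1 (adjusted p = 0.696), 0.23 ± 0.33 for MAGED1 (adjusted p = 0.635), 0.04 ± 0.72 for PID1 (adjusted p = 0.978) and 0.89 ± 1.07 for CLEC5A (adjusted p = 0.572). Within stimulated WT cells 2 of the 5 were called, against 22.8% of rows. MAGED1 fell by 1.63 on the log2 scale at 24 h against 6 h (SE 0.33, adjusted p = 7.08e-04), and TNNT1 rose by 1.36 (SE 0.43, adjusted p = 0.0214).

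The rise of TNNT1 in WT was a borderline call. It was lost without WT 6 h replicate 1 (1.31, adjusted p = 0.0613), WT 6 h replicate 2 (1.25, adjusted p = 0.0744) or WT 24 h replicate 3 (1.03, adjusted p = 0.124), and when only stimulated libraries were fitted (adjusted p = 0.0538). The other WT differences were 1.03 ± 0.84 for INA (adjusted p = 0.406), -1.46 ± 0.72 for PID1 (adjusted p = 0.149) and -1.15 ± 1.07 for CLEC5A (adjusted p = 0.479).

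Whether the KO deficit itself changed between 24 and 6 h was tested as a difference of differences, which called 0 of the 5 genes and 0.683% of rows (3237 rows had an unadjusted p below 0.05). MAGED1 came closest, with the KO minus WT difference 1.87 ± 0.47 smaller in size at 24 h (adjusted p = 0.0561). With a replicate block this change of MAGED1 was called (adjusted p = 0.0236), as it was without KO 24 h replicate 2 (2.06, adjusted p = 0.0316). Most of it came from WT cells, where MAGED1 differed by -1.63 at 24 against 6 h, while KO cells differed by 0.23. All 9 stimulated KO libraries were below 1 for MAGED1. For TNNT1 the deficit was larger by 1.62 at 24 h (difference -1.62 ± 0.61, adjusted p = 0.203), and for PID1 and CLEC5A it was smaller by 1.49 ± 1.02 (adjusted p = 0.490) and 2.03 ± 1.51 (adjusted p = 0.525). INA differed by 0.09 ± 1.18 (adjusted p = 0.980).

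Of all rows, 1.14% were called lower in KO at all 3 vehicle times, the 5 genes among them by choice. Among the 224 with a symbol whose groups also did not overlap at those times, they ranked 2 (INA), 4 (MAGED1), 5 (TNNT1), 6 (PID1) and 7 (CLEC5A) by mean vehicle difference. Their mean vehicle differences were -5.96, -5.36, -5.09, -4.92 and -4.84 in that order. Rank 1 was the pseudogene ZBED10P (vehicle -6.13, stimulated -1.28) and rank 3 the haemoglobin scavenger receptor gene CD163 (vehicle -5.42, stimulated -5.16). Next below CLEC5A came ZNF214, a zinc finger gene (-4.25 in vehicle, -2.18 stimulated), SLC12A7, a potassium chloride cotransporter gene (-4.22 and -0.85), and the long noncoding RNA PELATON (-4.17 and -2.37). Of the top 7 rows, 4 were called lower at all 3 stimulated times (INA, CD163, MAGED1 and TNNT1), and the other 3 at 1 time. PID1 and CLEC5A were thus not alone among the large vehicle falls in being called at fewer stimulated times.

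**Figure D3:**
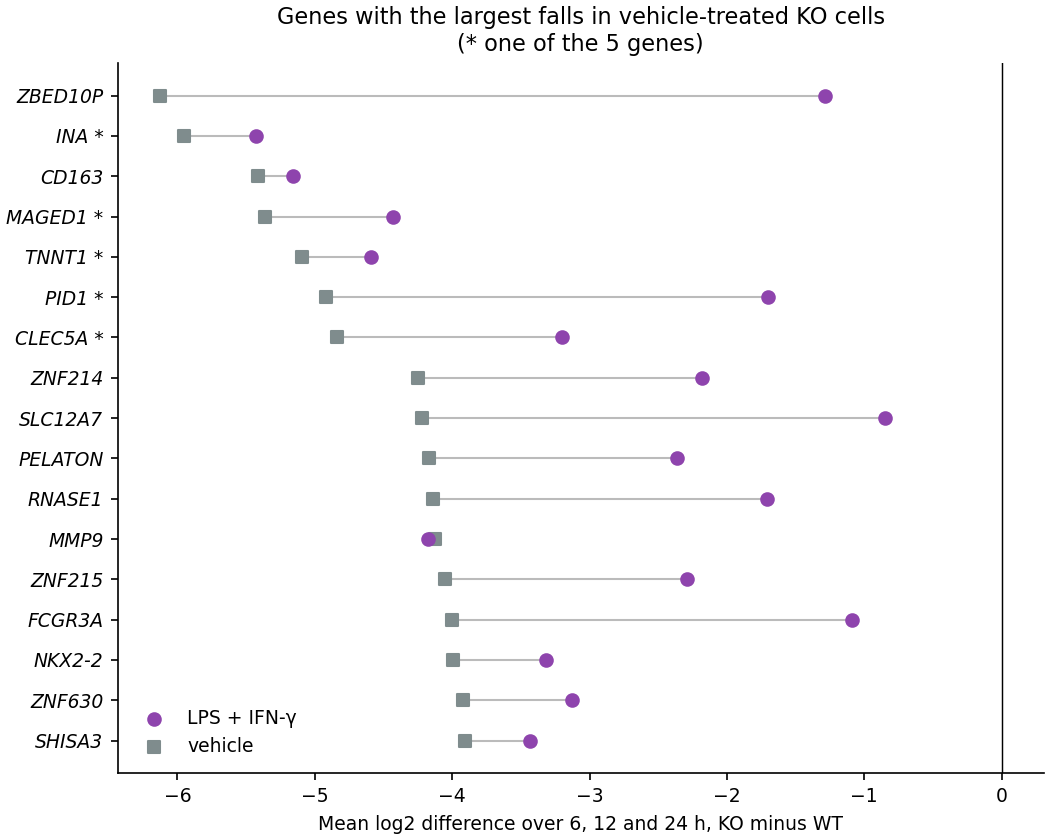
Mean KO minus WT log2 difference over 6, 12 and 24 h in stimulated (purple circles) and vehicle (grey squares) cells for the 17 largest vehicle falls among the 224 rows with a symbol that were called lower without overlap at all 3 vehicle times, the 5 genes marked with a star. INA, CD163, TNNT1 and MMP9 lie near their vehicle values when stimulated, while PID1 lies at -1.70 stimulated and -4.92 in vehicle, and ZBED10P at -1.28 and -6.13.

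The genes whose levels most resembled each member over the 12 group means were found among 15284 protein-coding rows by Pearson correlation, which here mostly carries the split between genotypes that chose the members. INA was most like MMP9 (r = 0.984), the gelatinase of macrophages, ZNF630 (0.984) and SLC35B3 (0.980). MAGED1 was most like ZNF630 (0.985), MMP9 (0.984) and the chitinase gene CHIT1 (0.981), and TNNT1 like CHIT1 (0.985), ZNF630 (0.982) and SLC35B3 (0.981). PID1 shared none of these, and was most like ARSG (0.976), MAP3K14 (0.970) and TRDMT1 (0.967), and CLEC5A like ZNF215 (0.976), the neuropilin gene NRP1 (0.974) and ZNF630 (0.974). The KO minus WT differences of these genes on the stimulated mean were -4.17 for MMP9, -3.13 for ZNF630, -2.46 for CHIT1, -2.29 for ZNF215 and -1.11 for NRP1. SLC35B3 (-0.56), ARSG (-0.84), MAP3K14 (-0.85) and TRDMT1 (-0.61) had the same shape with smaller differences. Within the 6 WT group means alone, PID1 and CLEC5A kept a correlation of 0.908, MAGED1 correlated at 0.791 with CLEC5A and 0.748 with PID1, and MAGED1 and TNNT1 ran in opposite directions (-0.703). The other 6 pairs lay between -0.417 and 0.161, so the likeness over 12 groups (0.715 to 0.980 between members) was mostly between genotypes.

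Each member differed more between KO and WT than the genes beside it, which picking members for large falls made likely. These differences were not tested against each other. Of the 30 nearest measured genes, 3 on each side of each member, 29 were kept, 7 were called lower, 0 higher and 22 not called on the stimulated mean. Their differences ran from -2.40 to 0.93 with a median of -0.35, and the share called lower in the whole table was 10.4%. The largest was OR9A4, an olfactory receptor gene next to CLEC5A (-2.40 ± 0.48, adjusted p = 6.06e-04, and -2.42 in vehicle), while MGAM on the other side of CLEC5A was not called on the stimulated mean (-0.88 ± 0.51, adjusted p = 0.224, and -2.28 in vehicle). MTRNR2L6, a further neighbour of CLEC5A at -1.66 ± 0.31 (adjusted p = 2.50e-04), is close in sequence to mitochondrial RNA and its reads may be shared. On the vehicle mean OR9A4, MGAM, TRBV7-3 (-1.01) and MTRNR2L6 (-1.04) were called lower beside CLEC5A. Its other neighbours TAS2R4 and TAS2R5 were not called there. On the vehicle mean NT5C2 (-0.55), PCGF6 (-0.85), TAF5 (-0.52) and ATP5MK (-0.78) were also called lower beside INA. So were GSPT2 (-0.54) beside MAGED1 and TNNI3 (-1.17) beside TNNT1, while H3P44 (1.12) and FAM156B (0.59) beside MAGED1 were called higher. The vehicle shares over all rows were 12% lower and 11.4% higher. On the stimulated mean GSPT2 fell by 0.61 on the log2 scale (SE 0.12, adjusted p = 5.51e-04) and XAGE1A, also next to MAGED1, was near 0 (-0.03 ± 0.23, adjusted p = 0.942). None of the 6 neighbours of INA reached 1 log2 unit: MARCKSL1P1 lay at -0.99 ± 0.23 (adjusted p = 0.00243), NT5C2 at -0.56 ± 0.19 (adjusted p = 0.0279), and PCGF6 at -0.46 ± 0.15 (adjusted p = 0.0252). The TNNI3 gene beside TNNT1 codes for cardiac troponin I and differed by -1.003 ± 0.35 (adjusted p = 0.0359), a call that was lost in 11 of 18 fits that left out 1 library. None of the kept neighbours of PID1 was called. No gene overlapping a member in the RefSeq annotation was a row of the table, and whether the counting used strand is not given.

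**Figure D4:**
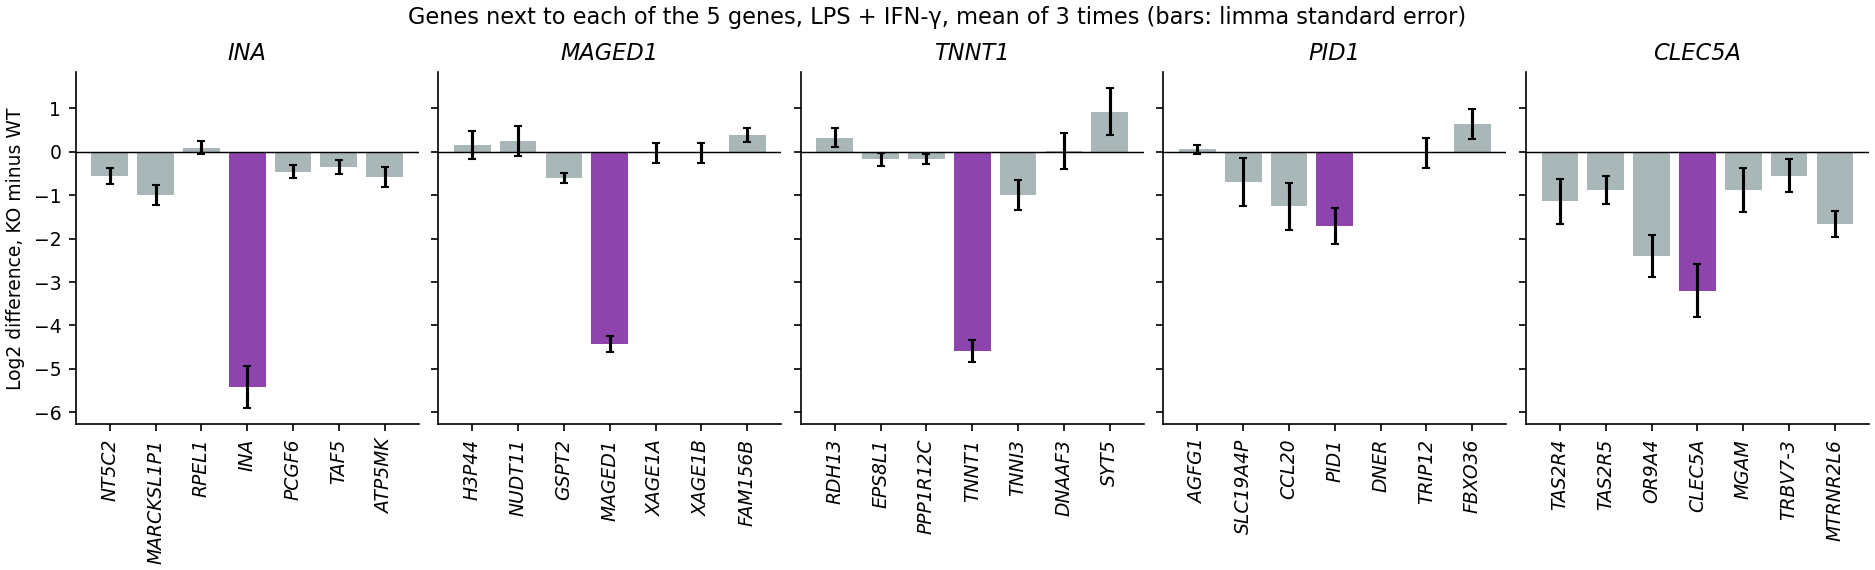
KO minus WT log2 difference in stimulated cells (mean of 3 times) for each of the 5 genes (purple) and its 3 nearest measured genes on each side in gene order (grey), with limma standard errors as bars. INA at -5.43, MAGED1 at -4.43 and TNNT1 at -4.59 stand well below neighbours, which end at -2.40 for OR9A4 beside CLEC5A. The members were picked for large falls in vehicle and the neighbours were not.

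Among relatives of the members some genes fell and others rose. Of the 11 other intermediate filament genes kept, 2 fell, 3 rose and 6 were not called on the stimulated mean (median 0.09, against 0.02 over all rows), where 10.4% of all rows were called lower. On the vehicle mean 5 were called lower and 3 higher, against 12% and 11.4% of all rows. Those that fell were VIM, the vimentin gene of mesenchymal and myeloid cells (-2.18 ± 0.26, adjusted p = 4.45e-07), and NEFH, a neurofilament gene (-0.94 ± 0.19, adjusted p = 5.94e-04), and SYNM, the synemin gene, rose (1.09 ± 0.29, adjusted p = 0.00679). Of 9 other troponin and tropomyosin genes 2 fell and 0 rose (median -0.17), among them TNNT2, the cardiac troponin T gene (-1.75 ± 0.53, adjusted p = 0.0163). No vehicle library of either genotype passed 0.02 for TNNT2.

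Several relatives of MAGED1 rose. Of the 6 other type II MAGE genes kept, 0 fell and 5 rose (median 0.70), namely TRO (1.04 ± 0.16, adjusted p = 3.20e-05), MAGEH1 (0.94 ± 0.21, adjusted p = 0.00157), MAGEE1 (0.75 ± 0.17, adjusted p = 0.00242) and MAGEF1 (0.66 ± 0.13, adjusted p = 5.23e-04) as the largest. The share of all rows called higher was 12.2% on the stimulated mean. On the vehicle mean 0 of these 6 genes were called lower and 2 higher (median 0.34), against 12% and 11.4% of all rows. Of 10 genes linked to MAGED1 in death and neurotrophin signalling 0 fell and 4 rose on the stimulated mean (median 0.25), among them BEX1, a p75 receptor-binding protein gene (1.77 ± 0.23, adjusted p = 2.27e-06), UNC5B, a netrin receptor gene (1.49 ± 0.23, adjusted p = 3.58e-05), and TRAF4 (0.64 ± 0.19, adjusted p = 0.0151). NGFR, the p75 receptor gene, was not called on that mean (-0.33 ± 0.335, adjusted p = 0.532). At 24 h alone NGFR was called lower (-1.92 ± 0.58, adjusted p = 0.0470).

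Of 14 other genes of adaptors with phosphotyrosine-binding domains and PID1 partners 3 fell, 4 rose and 7 were not called (median 0.13). LRP1, the receptor that PID1 binds, fell (-2.05 ± 0.27, adjusted p = 1.97e-06, and -2.104 in vehicle), with means of 6.59, 5.60 and 4.62 in stimulated KO and 8.49, 7.58 and 6.90 in stimulated WT cells at 6, 12 and 24 h. The adaptor gene APBA1 also fell (-1.36 ± 0.32, adjusted p = 0.00276). The insulin receptor substrate genes rose, IRS2 by 1.71 ± 0.19 (adjusted p = 1.70e-07) and IRS1 by 1.18 ± 0.31 (adjusted p = 0.00595). Of all rows 10.4% were called lower and 12.2% higher on the stimulated mean. On the vehicle mean 3 of the 14 listed genes were called lower and 7 higher, against 12% and 11.4% of all rows.

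Some receptors that signal through DAP12, as CLEC5A does, fell as well, and the DAP12 gene itself was not called. Of 15 other genes of DAP12-coupled receptors and their signalling 3 fell, 2 rose and 10 were not called (median -0.07). The 3 that fell were receptors, TREM1, an amplifier of inflammatory signals (-2.78 ± 0.49, adjusted p = 1.30e-04), CD300E (-1.89 ± 0.45, adjusted p = 0.00295) and TREM2, a lipid-sensing receptor (-1.50 ± 0.30, adjusted p = 6.47e-04). TREM1 differed by -1.78 ± 0.84 at 6 h (adjusted p = 0.200), -3.34 ± 0.84 at 12 h (adjusted p = 0.0219) and -3.22 ± 0.84 at 24 h (adjusted p = 0.0229), so it was called at the times at which CLEC5A was not, though the genes were not tested against each other. TYROBP, the gene of DAP12, ran from 9.10 to 11.27 in stimulated KO and from 9.99 to 10.77 in stimulated WT libraries (-0.55 ± 0.22, adjusted p = 0.0719), and the kinase gene SYK differed by -0.06 ± 0.17 (adjusted p = 0.860). Of all rows 10.4% were called lower and 12.2% higher on the stimulated mean. On the vehicle mean 5 of the 15 listed genes were called lower and 1 higher (median -0.38), against 12% and 11.4% of all rows.

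**Figure D5:**
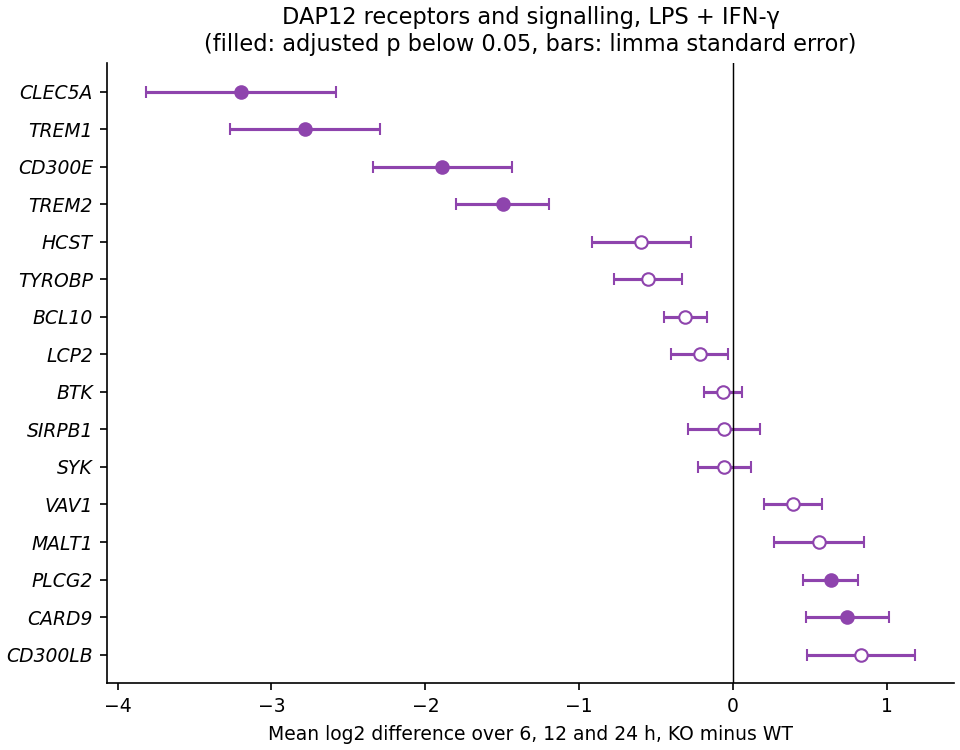
KO minus WT log2 difference in stimulated cells (mean of 6, 12 and 24 h) for CLEC5A and the listed genes of DAP12 receptors and signalling, with limma standard errors as bars and filled points for adjusted p below 0.05. CLEC5A at -3.20, TREM1 at -2.78, CD300E at -1.89 and TREM2 at -1.50 lie lowest, and TYROBP at -0.55 is not called.

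Among 17 other myeloid C-type lectin genes 4 fell, 1 rose and 12 were not called on the stimulated mean (median -0.41). Of all rows 10.4% were called lower and 12.2% higher there. CLEC10A, a galactose-binding lectin gene, differed by -1.94 ± 0.53 (adjusted p = 0.00884), CLEC4E, the gene of the receptor Mincle, by -1.90 ± 0.48 (adjusted p = 0.00487), and MRC2 by 1.17 ± 0.21 (adjusted p = 1.80e-04). On the vehicle mean 8 of the 17 lectin genes were called lower and 1 higher (median -0.75), against 12% and 11.4% of all rows. SPI1, the gene of PU.1, ran from 10.45 to 11.84 in stimulated KO and from 10.79 to 11.68 in stimulated WT libraries, a difference of 0.02 ± 0.13 (adjusted p = 0.949). In vehicle, SPI1 ran from 9.37 to 10.45 in KO and from 10.49 to 11.21 in WT libraries, which do not overlap. The part of SPI1 in the CLEC5A values was not tested.

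INA and TNNT1 are best known from neurons and muscle, whose other markers were also counted. Of 10 neuron markers listed 6 were measured and kept, and 0 of the 6 were called on the stimulated mean (median 0.28), 1 was higher at stimulated 6 h, and 2 were lower and 1 higher on the vehicle mean. Of 10 muscle markers listed 7 were measured and 6 kept, and 0 of the 6 were called on the stimulated mean (median -0.18), 1 was lower at stimulated 6 h and 1 lower on the vehicle mean. The shares of all rows called lower and higher were 10.4% and 12.2% on the stimulated mean and 12% and 11.4% on the vehicle mean. At stimulated 6 h they were 3.86% and 4.86%. With only 6 genes per list, 0 called on the stimulated mean is near those shares. The summed level of the neuron markers on the log2 scale ran from 6.44 to 7.67 in stimulated KO and from 6.37 to 7.44 in stimulated WT libraries, and that of the muscle markers from 6.09 to 8.44 in stimulated KO and from 5.44 to 7.94 in stimulated WT libraries. Of 7 lymphocyte, fibroblast and epithelial markers kept, 2 fell and 1 rose on the stimulated mean. COL1A1, a fibroblast collagen gene, fell by 2.87 (adjusted p = 3.23e-09) and CDH1, the epithelial cadherin gene, rose by 1.55 (adjusted p = 0.0141) on the log2 scale. Their part in the falls of INA, TNNT1 and the others was not tested.

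Of 20 macrophage identity genes 8 fell, 2 rose and 10 were not called on the stimulated mean (median -0.52), where 10.4% of all rows were called lower and 12.2% higher. On the vehicle mean 11 of the 20 were called lower and 1 higher, against 12% and 11.4% of all rows. On the stimulated mean CD163 fell by 5.16 (adjusted p = 5.97e-10), LYZ, the lysozyme gene, by 2.84 (adjusted p = 8.28e-08), and the scavenger receptor genes MSR1 and MARCO by 1.68 and 1.66 (adjusted p = 1.10e-04 and 0.0142), all on the log2 scale. Of 14 markers of undifferentiated myeloid precursors 3 fell, 6 rose and 5 were not called on the stimulated mean (median 0.32), with KIT at 1.99, CD34 at 1.62, FLT3 at 1.42 and CEBPE at -1.47 as the largest. In vehicle 1 of the 14 was called lower and 7 higher on the mean (median 0.81). The summed level of the precursor markers on the log2 scale ran from 13.7 to 15.5 in stimulated KO, 13.7 to 15.1 in stimulated WT, 14.7 to 15.2 in vehicle KO and 13.6 to 14.4 in vehicle WT libraries. Whether the state of differentiation has a part in the low values of the 5 genes was not tested.

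Of 12 genes for CpG methylation and polycomb silencing, 2 fell, 0 rose and 10 were not called on the stimulated mean (median -0.07). Of all rows 10.4% were called lower and 12.2% higher there. In vehicle, where the members were picked, 0 of the 12 were called in either direction, on the mean or at any time. On the vehicle mean 12% of all rows were called lower and 11.4% higher. The part of these genes in the low values of the members was not tested.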

How the data were processed

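The authors deposited 1 table of log2 values per Entrez Gene row for 36 libraries. Per the labels' protocols, RNA was extracted with Qiagen RNeasy and libraries were made with the Roche KAPA HyperPrep kit with RiboErase. The submitters' processing notes name cutadapt 1.9.1, GSNAP and the build GRCh37.p5. Counting, annotation, normalization and the offset before the logarithm are not given in the sources used here. Library medians ran from 5.4691 to 5.4753, so the libraries share nearly 1 scale, 7744 values were exactly 0 and 274 were below 0. Depth is unknown, and no interval from depth is given.

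Of 21599 rows, 20609 matched a symbol and 990 did not. The filter asked for 3.32 (log2 of 10) or more in 3 or more libraries, which 21232 rows passed and 367 did not. Means of the 12 groups were fitted to these rows by limma 3.58.1 in R 4.3.3 (mean-variance trend, 24 residual degrees of freedom), with Benjamini-Hochberg adjustment within each of 7 tested comparisons. Python 3.11.15 with pandas 2.3.3, numpy 2.4.6 and matplotlib 3.10.9 made tables and figures. The fit was checked on simulated data.

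The 5 members and the 13 gene lists were chosen with earlier results of these data known. Named genes are the members, ACOD1, up to 4 called genes per list with the largest absolute stimulated mean change, 3 most-correlated protein-coding genes and 3 neighbours on each side per member, and the rows around the members in the vehicle ranking. Of the list genes so named, those whose call was lost in some fit that left out a library are in the closing section or beside their value, and a few named by this rule are not reported here. Promoter windows are from RefSeq (GRCh38.p14). Neighbour order is from the RefSeq gene table, whose build differs from the authors', so none of its coordinates is given.

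Like-numbered libraries were checked as pairs by the correlation of their deviations from group means. All 3 pairs were over 0.1 at 12 h (0.113 to 0.334), at 24 h (0.215 to 0.346) and for stimulated WT 24 against 6 h (0.261 to 0.425), and not at 6 h (-0.150 to 0.263) or for stimulated KO 24 against 6 h (0.0191 to 0.340). Alternatives were other filters, a pseudocount of 5, no trend, library weights, a minimum log2 change of 1, a replicate block, fits of fewer libraries and each library left out in turn.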

Additional observations from a re-analysis of the deposited data

How the results depend on the processing

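No called change of a member reversed its direction under any setting run. Uncalled changes near 0 changed sign in 3 results: with 1 library left out the change of the INA deficit ran from -0.16 to 0.38, and stimulated KO 24 against 6 h from -0.60 to 0.32 for TNNT1 and from -0.28 to 0.29 for PID1. Of the member changes under settings other than leaving out a library, 396 stayed on their side of the threshold, 15 lost and 9 gained a call, and with a library left out 293 stayed, 6 lost and 1 gained a call. INA, TNNT1 and MAGED1 held their calls in stimulated KO against WT at each time under every setting, except TNNT1 at 6 h (adjusted p = 0.0546) and MAGED1 at 24 h (adjusted p = 0.0798) when only the 6 libraries compared were fitted. The limits are 3 libraries per group, low KO values that hang on an offset that is not given, and unknown depth.

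The number of members called was 3 of 5 at 6 h with a minimum log2 change of 1 or with the compared libraries only, 5 at 12 h with library weights, and 3 on the mean with the minimum change. For WT 24 against 6 h it was 3 with library weights, where PID1 gained a call (-1.63, adjusted p = 0.0375), 0 with the minimum change, and 1 with stimulated libraries only, with compared libraries only or without the 2 libraries that stand apart, a setting chosen after seeing the data. For the change of the KO deficit it was 1 (MAGED1) with a pseudocount of 5 (adjusted p = 0.0115), no trend (0.0195), library weights (0.00112) or a replicate block (0.0236). CLEC5A and PID1 were called at 12 h with library weights (adjusted p = 0.0304 and 0.0342), and CLEC5A at 24 h (0.0176). With the minimum change the adjusted p of CLEC5A was 0.118 at 6 h and 0.0578 on the mean, and that of PID1 0.723 and 1.00. Leaving out 1 library gave 4 to 5 members at 6 h, 3 at 12 h and at 24 h throughout, 5 on the mean throughout, 0 for KO and 1 to 2 for WT over time, and 0 to 1 for the change of the deficit.

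Rows called over the whole table moved more. Against 1850 at 6 h, the count was 733 with a stricter filter, 5894 with library weights, 2932 with a replicate block, 133 with the minimum change, 844 with stimulated and 111 with compared libraries only. At 12 h (733) these were 236, 3589, 1504, 46, 255 and 47, and 1274 without the 2 libraries. At 24 h (1247) they were 652, 4641, 2464, 45, 293 and 3, and 675 without the 2 libraries. On the mean (4807) the stricter filter gave 2255, weights 9220, the minimum change 238, and either reduced fit 3180. KO over time (5830) gave 3364 with the stricter filter, 516 with the minimum change and 1394 with compared libraries. WT over time (4834) gave 2911, 357 and 1389, and 8701 with weights. The change of the deficit (145) gave 64 with the stricter filter, 299 with the pseudocount, 2109 with weights, 616 with the block, 11 with the minimum change, 23 and 5 with the reduced fits and 84 without the 2 libraries. The cause was not tested. Leaving out 1 library gave 932 to 1950 at 6 h, 247 to 890 at 12 h, 339 to 1860 at 24 h, 3845 to 5634 on the mean, 4194 to 6172 for KO, 3805 to 4513 for WT and 47 to 304 for the change of the deficit.

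Of 39 list genes that the rule names, 33 kept their call in all 18 left-out fits. Among the others, the calls of NES (1.61), TNNI3 (-1.003), CARD9 (0.74), CLEC4D (-1.13) and DNMT3B (-0.67) were lost in 2, 11, 13, 8 and 4 of them. The replicate block, apart from CLEC5A at 24 h and MAGED1 in the change of the deficit, changed no other call of a member.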
